A study of Mus musculus with 26 samples.

Results

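The nuclear-encoded subunits of the mitochondrial respiratory chain and ATP synthase were followed in mouse intestinal organoids treated with arachidonic acid (AA) or prostaglandin E2 (PGE2). Members were the mouse gene symbols that begin Ndufa, Ndufb, Ndufc, Ndufs or Ndufv with a digit, Sdha to Sdhd, the Uqcr and Uqcc genes, Cox4 to Cox8 and Atp5, leaving out symbols that end in -ps. The rule used names and no measured value. It found 92 of 55385 gene identifiers, and these carry 91 symbols because Atp5o has 2 identifiers. By complex there were 38 members in complex I, 4 in complex II, 11 in complex III, 21 in complex IV and 18 in complex V. Ndufa4 and Ndufa4l2 were counted with complex IV, where their products are placed, although their symbols read as complex I.

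The organoids were grown from C57BL/6 crypts in Matrigel, a basement membrane gel, in medium with EGF, Noggin, R-spondin, N-acetyl-cysteine, B27, N2, the Wnt-activating inhibitor CHIR-99021 and the ROCK inhibitor Y-27632, which all groups shared. There were 26 libraries: 6 groups of 3 received vehicle, AA (25 µM) or PGE2 (50 nM) for 1 or 3 days, and 2 groups of 4 received vehicle or AA for 6 days. No PGE2 group of day 6 was analysed here. The treatment protocol names PGE2 and the design text a dimethyl PGE2, and these sources leave unsaid which one was added. Neither the origin of the replicates (cultures or mice) nor the age or sex of the mice is stated in the labels. So p-values then measure only the spread between these libraries, which may be technical.

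Complexes I and II pass electrons from NADH and succinate to coenzyme Q, complex III passes them on to cytochrome c, and complex IV hands them to oxygen. Complexes I, III and IV pump protons, and complex V, ATP synthase, uses the gradient to make ATP. Most subunits are made from nuclear genes and imported, while some, spread over every complex except complex II, are encoded by mitochondrial DNA. In the intestinal epithelium both cycling crypt cells and absorptive enterocytes depend on this pathway, and AA is the fatty acid from which cyclooxygenases make PGE2.

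Total counts per library were 1.01e+07 to 1.46e+07 on days 1 and 3 and 1.61e+07 to 1.98e+07 on day 6. Days 1 and 3 were in 1 count table and day 6 in another, and these differed in make-up: mitochondrial rRNA held 6.74% to 10.3% of counts on days 1 and 3 and 0.00305% to 0.266% on day 6, so levels are compared only within a table. Epithelial markers (Epcam, Cdh1, Krt8, Krt18, Krt19, Vil1 and Cdx2) were found in every group, with a summed level of 4145 to 13297 CPM (counts of a gene set against the total of its library). Markers of fibroblasts, immune, endothelial, striated and smooth muscle, brown fat and neural cells summed to at most 9.46 CPM in any library. CPM values were scaled within each table by trimmed means (TMM).

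Of the 92 members, 82 had enough reads to be tested. The 10 others were 4 processed pseudogenes (Ndufa11b, Ndufb4c, Ndufs6b and Cox6c2), the second Atp5o identifier with 0 reads, and 5 isoform genes. Among those isoforms Cox7b2, Cox8b and Cox8c had 0 reads in all libraries, Cox4i2 had 1 read on days 1 and 3 and 2 on day 6, and Cox6a2 had 8 and 50. With 3 reads as the limit that a count of 0 allows, the 3 silent isoforms were not detectable at this depth. Some members have near-identical processed copies elsewhere in the genome, and the counting rule for such reads is not stated in the labels.

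Per kilobase of exon, ATP synthase and complex IV subunits stood highest. Levels per length in vehicle on day 1 were 429 CPM per kb for Atp5b, the catalytic beta subunit, 303 for Cox6b1 and 278 for Atp5a1, the alpha subunit. Cox8a followed at 255, Uqcr10 at 236 and Cox4i1 at 223 CPM per kb. The lowest tested members were Ndufa4l2 at 0.0217, Cox6b2 at 1.12, Ndufb2 at 1.72, Atp5s at 3.67 and Cox7a1 at 3.93 CPM per kb. Of these Ndufa4l2, Cox6b2 and Cox7a1 are tissue-restricted and rest on few reads. The length used merges all annotated exons of a gene, 5628 bases for Ndufb2, so the ranks depend on the annotation.

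The summed RNA of the members was lower with both treatments after 1 day, and lowest with PGE2. Summed over all 92 members, the 3 vehicle libraries of day 1 stood at 11405, 11368 and 12898 CPM, the AA libraries at 9901, 9781 and 9669 CPM and the PGE2 libraries at 8456, 8271 and 8330 CPM. The 3 groups did not overlap, and the means were 17.7% lower with AA and 29.8% lower with PGE2. Vehicle replicate 3 was the highest of its group, and the AA and PGE2 libraries lay close together. On day 3 the sums were 10917, 9622 and 10701 CPM in vehicle, 10319, 10271 and 11452 with AA, and 9008, 8867 and 9108 with PGE2. AA and vehicle overlapped there, while every PGE2 library was below both. On day 6 vehicle ranged from 14590 to 17915 CPM (median 16093) and AA from 14577 to 15146 (median 14809), which overlapped. In bulk RNA, fewer cells of a type and less RNA per cell cannot be told apart.

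**Figure D1:**
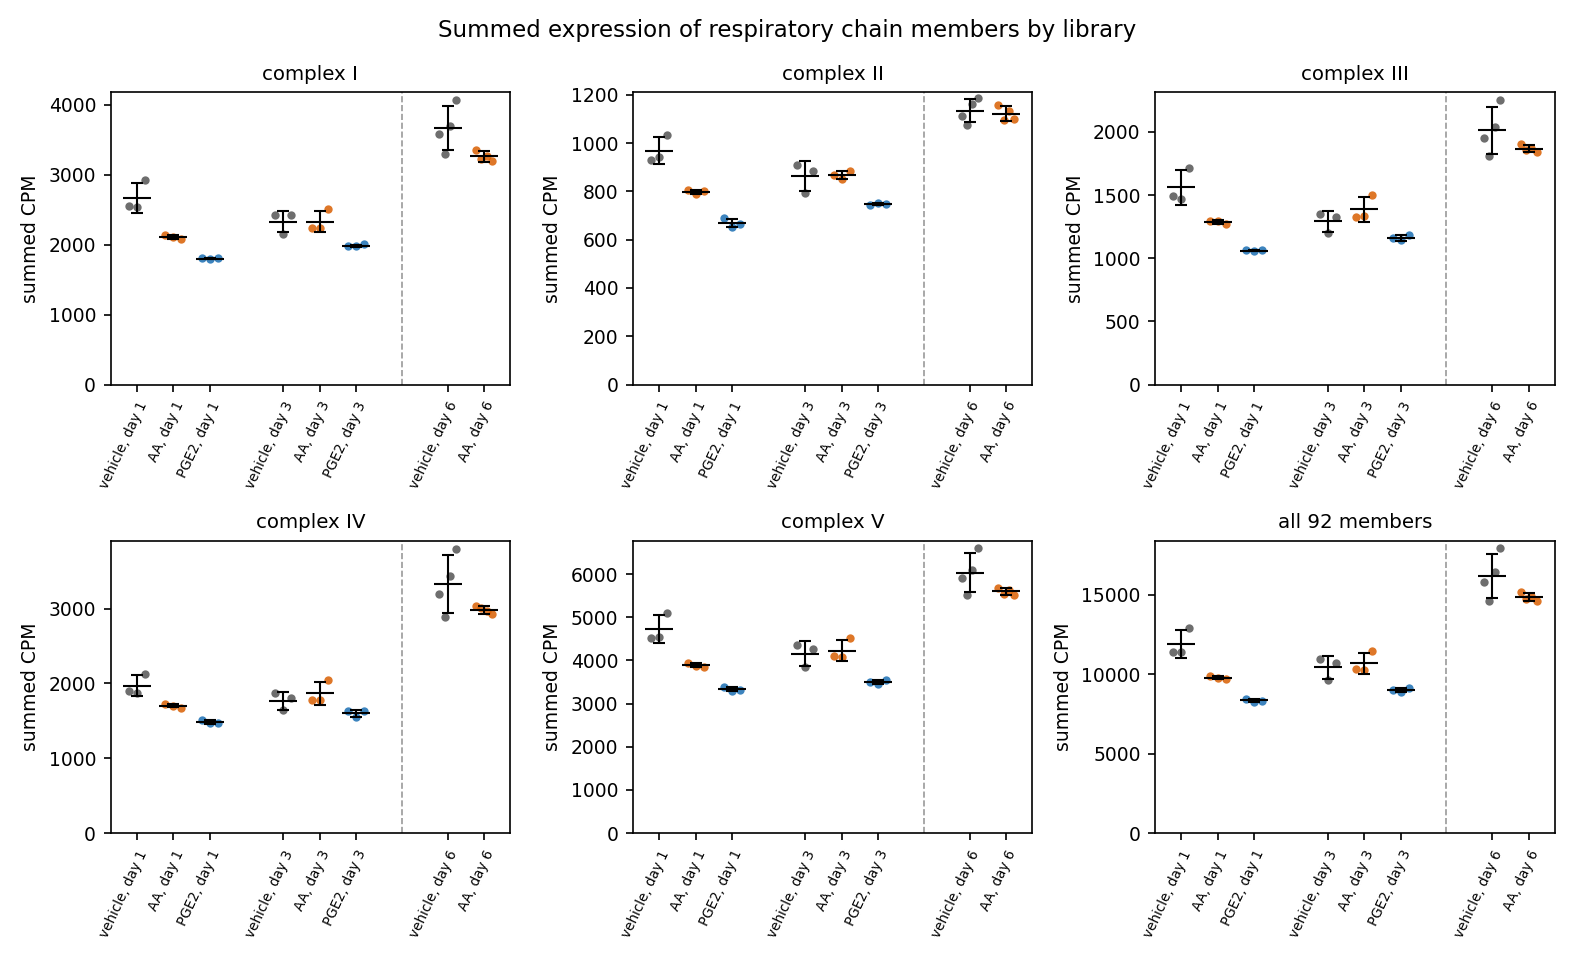
Summed CPM (vertical axis, from 0) of the members of each complex and of all 92 members, by group and day (horizontal axis); points are libraries, bars the mean ± SD, and the dashed line separates the day 6 table, whose level is not comparable. In each panel the day 1 AA libraries sit below vehicle and the PGE2 libraries below AA, and on day 3 PGE2 alone is below the vehicle libraries.

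Tested gene by gene with edgeR's quasi-likelihood test and Benjamini-Hochberg adjustment over all genes, 71 of 82 members fell with AA on day 1 and 0 rose, against 22.2% of all tested genes that fell and 19.5% that rose. The median log2 fold change of the members was -0.30, that of all genes tested -0.03. With PGE2 on day 1, 75 members fell and 0 rose, against 28.9% and 27% of all genes, with a median of -0.55 beside -0.02 for all genes. All 71 that fell with AA were among the 75. Every AA library lay below every vehicle library for 74 members (29% of all genes), and every PGE2 library did for 76 (32.5% of all genes). For 0 members did every AA or every PGE2 library lie above vehicle, against 24.6% and 30.3% of all genes. The AA and PGE2 comparisons share the 3 vehicle libraries. The AA falls of Cox5a and Uqcrfs1 were lost when any of 4 and of 3 single libraries, respectively, was left out. Both were also lost with DESeq2 and without mitochondrial and rRNA-like genes, and that of Cox5a with RLE scaling, with no filter and when only the compared groups were fitted.

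**Figure D2:**
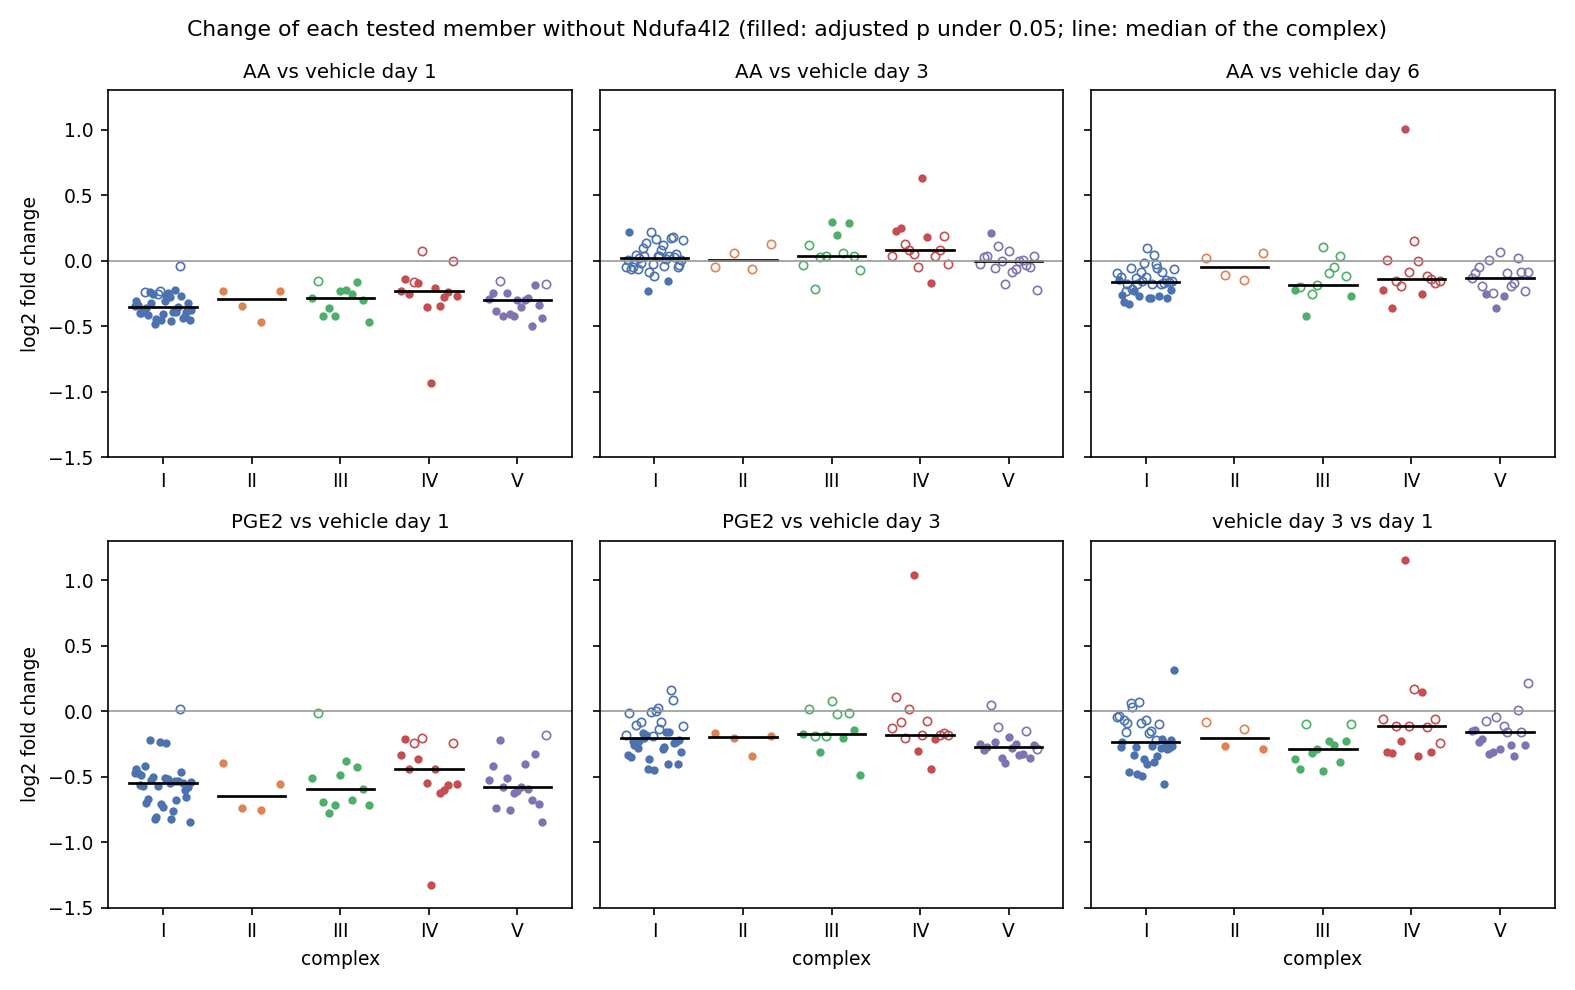
Fitted log2 fold change (vertical axis) of each tested member by complex (horizontal axis) in 6 comparisons; filled points passed an adjusted p of 0.05, open points did not, and black lines are medians of the complex over all its tested members. Ndufa4l2, whose counts are given in the text, lies outside the axis and is not drawn. Nearly all points lie below 0 on day 1, with most PGE2 points lower than the AA points, and the AA points of day 3 lie around 0.

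Complex I carries electrons from NADH through a flavin and a chain of iron-sulfur clusters. All 7 nuclear core subunits of its matrix arm fell with AA (median -0.39) and with PGE2 (median -0.60) on day 1. Ndufv2, a core subunit with an iron-sulfur cluster, measured 148, 144 and 182 CPM in vehicle, 123, 111 and 112 with AA and 88.3, 90.3 and 85.6 with PGE2. No group overlapped another. The log2 fold change of Ndufv2 was -0.45 ± 0.08 (SE) with AA (edgeR adjusted p = 2.0e-04) and -0.84 ± 0.09 with PGE2 (edgeR adjusted p = 7.7e-08). Ndufs1, the largest core subunit, and Ndufv1, which binds the flavin, fell by 0.22 and 0.32 on the log2 scale with AA and by 0.53 and 0.58 with PGE2.

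The accessory subunits of complex I, which surround the core, moved with it. Of the 12 tested Ndufa members 11 fell with AA and 12 with PGE2 on day 1. For the 12 Ndufb and Ndufc members the counts were 10 and 12. The strongest accessory changes with PGE2 were in Ndufb10 (-0.82 ± 0.07), Ndufc1 (-0.82 ± 0.09) and Ndufb11 (-0.80 ± 0.09), all in the membrane arm. Ndufb10 counted 52.6, 52.3 and 57.7 CPM in vehicle, 40.4, 39.5 and 36.5 with AA and 33.2, 28.8 and 29.6 with PGE2, so the AA values lay between the others without overlap. Ndufs4, an accessory subunit of the matrix arm, was an exception. Its levels were 58.2, 55.0 and 63.4 CPM in vehicle, 57.2, 56.6 and 57.8 with AA and 61.0, 59.8 and 57.7 with PGE2. These ranges overlapped, and its log2 fold changes were -0.04 ± 0.07 with AA (edgeR adjusted p = 0.69) and 0.02 ± 0.07 with PGE2 (edgeR adjusted p = 0.88).

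Complex II, succinate dehydrogenase, is also an enzyme of the tricarboxylic acid cycle and has 4 subunits, all nuclear. All 4 fell with both treatments on day 1. Sdhc, a membrane anchor, had 146, 147 and 161 CPM in vehicle, 112, 105 and 111 with AA and 90.5, 88.1 and 90.6 with PGE2, with no overlap between groups. The log2 fold change of Sdhc was -0.47 ± 0.06 (SE) with AA (edgeR adjusted p = 2.3e-07) and -0.75 ± 0.06 with PGE2 (edgeR adjusted p = 1.3e-11). Sdhb, the iron-sulfur subunit, gave -0.35 ± 0.06 with AA and -0.74 ± 0.06 with PGE2, and Sdha, the flavin subunit, -0.23 ± 0.05 and -0.40 ± 0.05. The other anchor, Sdhd, gave -0.23 ± 0.06 and -0.55 ± 0.06.

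In complex III all 8 subunits fell with AA (median -0.27) and with PGE2 (median -0.63) on day 1. Uqcr10, a small subunit, measured 128, 131 and 155 CPM in vehicle, 107, 110.1 and 105 with AA and 78.2, 80.4 and 83.0 with PGE2. The groups were separate, and the log2 fold change was -0.36 ± 0.07 with AA and -0.78 ± 0.07 with PGE2. The core proteins Uqcrc1 and Uqcrc2 and the Rieske iron-sulfur protein Uqcrfs1 gave, in that order, -0.38 ± 0.05, -0.68 ± 0.05 and -0.43 ± 0.06 with PGE2. Of the assembly factors, Uqcc1 and Uqcc3 fell with both treatments. Uqcc2 gave -0.15 ± 0.09 and -0.01 ± 0.09 and passed in neither (edgeR adjusted p = 0.2 and 0.93).

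Complex IV, cytochrome c oxidase, had 11 of 15 tested members lower with AA and 11 with PGE2 on day 1. It also had the smallest change in summed level on that day. Its summed level was 13.6% lower with AA and 24.6% lower with PGE2, against 20.9% and 32.5% for complex I. Among the 12 general subunits the strongest changes with PGE2 were in Cox7a2l (-0.62 ± 0.06) and Cox7b (-0.60 ± 0.06). Cox4i1, the subunit that binds adenine nucleotides, had 321, 331 and 385 CPM in vehicle, 297, 299 and 289.8 with AA and 277, 263 and 281 with PGE2. The 3 groups were separate. Cox6a1 and Cox8a, the general isoforms of their subunits, passed in neither comparison. Cox8a stood at 165, 160.1 and 148 CPM in vehicle, 142, 164 and 166 with AA and 143, 138 and 118 with PGE2, where AA and vehicle overlapped and PGE2 was below all vehicle libraries.

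In complex V, 15 of 17 tested members fell with AA and 16 with PGE2 on day 1. Atp5o, the stalk subunit that confers oligomycin sensitivity, was counted at 55.9, 51.5 and 59.8 CPM in vehicle, 45.6, 39.4 and 38.4 with AA and 31.3, 29.4 and 32.3 with PGE2. No 2 groups overlapped. The log2 fold change of Atp5o was -0.44 ± 0.07 (SE) with AA (edgeR adjusted p = 1.1e-05) and -0.84 ± 0.08 with PGE2 (edgeR adjusted p = 7.8e-11). The catalytic subunit Atp5b gave -0.24 ± 0.06 with AA and -0.42 ± 0.06 with PGE2. The 3 genes that encode the same c-ring protein all fell: Atp5g1 gave -0.76 ± 0.07, Atp5g2 -0.62 ± 0.08 and Atp5g3 -0.61 ± 0.05 with PGE2. Atp5d, the delta subunit of the rotor, fell with PGE2 (-0.22 ± 0.06) and gave -0.15 ± 0.06 with AA (edgeR adjusted p = 0.062). Atp5s, which encodes coupling factor B, passed with neither.

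**Figure D3:**
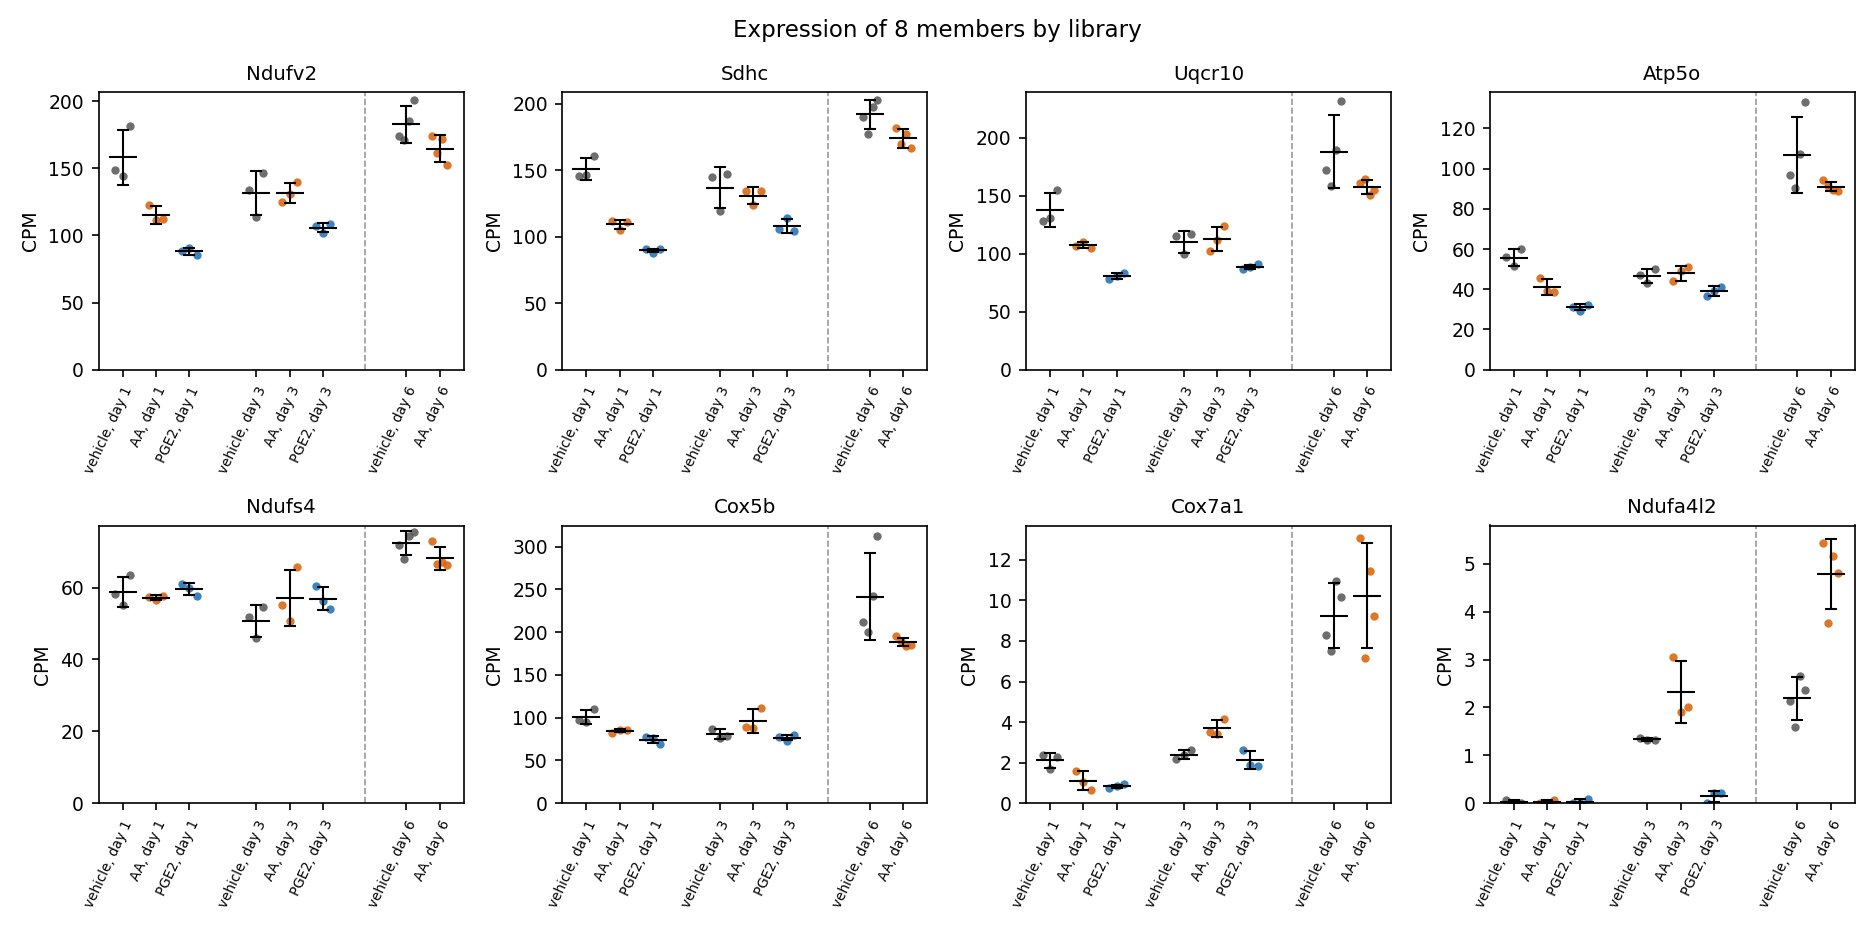
CPM (vertical axis, from 0) of 8 members in each library by group and day; points are libraries, bars the mean ± SD, and the dashed line separates the day 6 table. Ndufv2, Sdhc, Uqcr10 and Atp5o step down from vehicle to AA to PGE2 on day 1, Ndufs4 does not, and Cox7a1 and Ndufa4l2 are at few CPM.

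Since members of 5 complexes moved together, their promoters were searched for short motifs of factors known to act on respiratory genes. RefSeq windows (GRCm38.p6) from 250 bases before to 50 after a gene's start were at hand for 69 member genes and 27025 genes in all, and 22 members had no entry. All motifs were searched on both strands. The palindromic consensus of nuclear respiratory factor 1 (NRF1), with its middle letter left free, was present in 18 member genes (26.1%) and in 5.19% of all genes. The ETS motif CCGGAAG, the core read by GABP, was in 16 (23.2%) against 9.93%, and the YY1 motif AAGATGGCG in 7 (10.1%) against 1.64%. The estrogen-related receptor motif TCAAGGTCA was in 2 (2.9%) against 0.47%. The CREB motif TGACGTCA was in 4 (5.8%) against 2.03%, TGACG, which it contains, in 25 (36.2%) against 23.05%, and the Sp1 motif GGGCGG in 29 (42.0%) against 38.2%. These are counts of letters, not of bound sites. The 27025 genes include genes with too few reads to be tested here, so the shares compare unlike sets. Members with the NRF1 motif had a median log2 fold change of -0.57 with PGE2 on day 1, and those without it -0.54; for CCGGAAG the medians were -0.54 and -0.55. The strict NRF1 consensus, a subset of the first, was in 5 members (7.2%) against 1.07% of all genes, and there the medians ran the other way, at -0.47 with it and -0.55 without.

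One promoter per complex is printed to show where these motifs lie, chosen after the matches were known, with Ndufv2 added as the complex I member with the strongest fall under PGE2. Each line gives, 5′ to 3′ on the gene's strand, the longest stretch of the 250 bases before the RefSeq start that GENCODE marks as exon of no gene. The NRF1 motif, CCGGAAG and AAGATGGCG on either strand are in capitals. Other matches in the windows of these genes lie outside the printed stretches. They are NRF1 in Ndufb4 (-79 and -22 from the start) and Sdhd (-79), and CCGGAAG in Cox6a1 (-16) and Atp5h (-38). All 6 genes lie on the minus strand of GRCm38.p6, at chr16:37654454-37654618 (Ndufb4), chr9:50603850-50603909 (Sdhd), chr10:80406831-80407071 (Uqcr11), chr5:115348982-115349129 (Cox6a1), chr11:115419963-115420127 (Atp5h) and chr17:66101560-66101809 (Ndufv2).
Ndufb4: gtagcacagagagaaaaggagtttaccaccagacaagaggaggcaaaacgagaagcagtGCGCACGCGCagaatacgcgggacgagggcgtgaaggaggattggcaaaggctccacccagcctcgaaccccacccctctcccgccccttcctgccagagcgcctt
Sdhd: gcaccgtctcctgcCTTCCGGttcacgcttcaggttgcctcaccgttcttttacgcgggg
Uqcr11: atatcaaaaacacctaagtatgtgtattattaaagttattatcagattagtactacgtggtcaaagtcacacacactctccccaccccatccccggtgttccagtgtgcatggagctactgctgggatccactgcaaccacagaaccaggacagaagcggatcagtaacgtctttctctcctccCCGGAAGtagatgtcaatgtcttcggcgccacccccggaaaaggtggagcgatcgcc
Cox6a1: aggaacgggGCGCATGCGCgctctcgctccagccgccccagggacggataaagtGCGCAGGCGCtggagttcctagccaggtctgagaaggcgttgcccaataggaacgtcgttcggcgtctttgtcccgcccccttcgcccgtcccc
Atp5h: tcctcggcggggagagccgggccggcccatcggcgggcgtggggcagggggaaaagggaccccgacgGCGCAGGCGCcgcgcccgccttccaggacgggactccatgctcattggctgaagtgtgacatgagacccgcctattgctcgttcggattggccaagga
Ndufv2: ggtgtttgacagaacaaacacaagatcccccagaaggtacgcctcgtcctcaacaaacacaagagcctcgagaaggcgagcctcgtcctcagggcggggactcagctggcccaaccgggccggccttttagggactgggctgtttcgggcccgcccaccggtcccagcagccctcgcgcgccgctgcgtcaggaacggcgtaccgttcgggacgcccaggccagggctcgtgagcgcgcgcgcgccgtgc
Cox6a1 shows 2 NRF1 matches and did not pass on day 1 (-0.16 ± 0.11 with AA and -0.24 ± 0.11 with PGE2). Ndufv2 shows none of the 3 motifs and changed by -0.84 ± 0.09 with PGE2. Ndufb4 and Atp5h, each with 1 NRF1 match in the stretch, gave -0.71 ± 0.15 and -0.58 ± 0.06 with PGE2. Sdhd and Uqcr11, each with 1 CCGGAAG match there, gave -0.55 ± 0.06 and -0.71 ± 0.09. These genes were picked as examples, and whether any motif has a part in the changes was not tested.

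On day 3, with PGE2, 48 of 82 members were lower and 1 higher, against 30.1% and 28.9% of all genes, with a median of -0.20 beside -0.04 for all genes. By complex, 22 of 35 tested members of complex I, 4 of 4 of complex II, 5 of 11 of complex III, 4 of 15 of complex IV and 13 of 17 of complex V were lower. Every PGE2 library lay below every vehicle library for 48 members and above for 2, against 31.9% and 30.7% of all genes. Of the 75 members lower on day 1, 47 were also lower on day 3. Apart from the low-count Ndufa4l2, the strongest were Uqcrq (-0.49 ± 0.08), a complex III subunit, Ndufb5 (-0.45 ± 0.06), Ndufb11 (-0.44 ± 0.09) and Cox7a2l (-0.44 ± 0.06). Uqcrq measured 144, 129 and 136 CPM in vehicle and 97.8, 94.1 and 100.1 with PGE2, without overlap. All 7 core subunits of the complex I matrix arm and all 3 c-ring genes were still lower.

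With AA on day 3, 10 members were higher and 3 lower, smaller shares than among all genes (21.2% higher and 20.1% lower), and the members' median was 0.03. The AA libraries lay wholly above vehicle for 11 members and wholly below for 1, against 23% and 22.4% of all genes. The higher ones included 3 complex III subunits, Uqcrb (0.29 ± 0.09), Uqcrfs1 (0.29 ± 0.06) and Uqcrc1 (0.20 ± 0.05), and the complex IV subunits Cox5a (0.23 ± 0.05), Cox5b (0.25 ± 0.08) and Cox7a2 (0.18 ± 0.07). Uqcrfs1 counted 140.3, 124 and 128 CPM in vehicle and 156, 148 and 173 with AA, and Cox5a 136, 125 and 132 and 147, 152 and 160.4. Both pairs of groups were separate. Ndufa11 and Atp5d were also higher (0.22 ± 0.07 and 0.21 ± 0.06), and Ndufb11 (-0.23 ± 0.08) and Cox7a2l (-0.17 ± 0.06) were among those lower. Of the members that fell with AA on day 1, 8 were higher on day 3. The split depended on the scaling: it was 7 higher and 6 lower with total counts only, 13 and 0 without mitochondrial and rRNA-like genes, and 8 and 0 with DESeq2. It also depended on single libraries. It was 6 higher and 8 lower without vehicle replicate 2, 4 and 6 without AA replicate 3, and 13 and 0 without vehicle replicate 1 or AA replicate 2. The falls of Ndufb11 and Cox7a2l were each lost without any 1 of 4 libraries, and all named rises but those of Uqcrfs1, Uqcrc1 and Cox5a were lost without at least 1 library.

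The change of response between days was tested as a difference of differences. At the median, a higher response meant a weaker fall or none. From day 1 to day 3 the median log2 fold change against vehicle went from -0.30 to 0.03 with AA and from -0.55 to -0.20 with PGE2. The AA response was higher on day 3 than on day 1 for 56 members and lower for 0, against 10% and 7.95% of all genes, and the PGE2 response for 57 and 0, against 12.6% and 11.6%. The medians of the difference were 0.34 for AA and 0.36 for PGE2. Both responses share the vehicle libraries, and vehicle itself changed: 46 members were lower and 4 higher in vehicle on day 3 than on day 1 (20.5% and 19.8% of all genes), with a median of -0.23. Ndufb10 was 40.4, 37.1 and 39.1 CPM in vehicle on day 3, below the day 1 vehicle values given above, and 40.7, 43.5 and 44.4 with AA and 33.0, 34.5 and 35.1 with PGE2. Its response on day 3 minus that on day 1 was 0.62 ± 0.09 for AA (edgeR adjusted p = 8.6e-06) and 0.64 ± 0.09 for PGE2 (edgeR adjusted p = 4.1e-06). Ndufv3, a small matrix arm subunit, rose instead in vehicle over the same days (0.31 ± 0.07), from 40.3, 35.6 and 41.0 to 51.8, 48.5 and 44.5 CPM. Without AA replicate 3 of day 3, 35 members in place of 56 passed for AA.

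Set against each other, AA and PGE2 differed in size of response. The doses differ in molar terms, and these values hold for the doses used. On day 1, 50 members were higher with AA than with PGE2 and 0 lower, against 11.3% and 16.5% of all genes, with a median difference of 0.24. On day 3, 55 were higher and 1 lower, against 18.1% and 20.3%, again with a median of 0.24. The fitted value was lower with PGE2 for 77 of 82 members on day 1 and 80 on day 3. It was lower with AA for 5 members on day 1 and 2 on day 3, against 7788 and 7613 of all 14850 genes. Uqcrc2 showed the widest gap of all members that passed on day 1 (0.42 ± 0.05), with 312, 309 and 304 CPM with AA and 229.8, 225 and 234 with PGE2. The 1 member lower with AA on day 3 was Cox6b2. Atp5b gave 0.18 ± 0.06 on day 1 and 0.33 ± 0.06 on day 3.

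On day 6, 20 members were lower and 2 higher with AA than with vehicle, against 15.5% and 15.3% of all genes, with a median of -0.15 beside -0.01 for all genes. The AA libraries lay wholly below vehicle for 14 members and wholly above for 2, against 16.8% and 15.9% of all genes. All 20 had also fallen on day 1, as had 71 of all 82 tested members, so most of this overlap follows from the day 1 count. By complex 11 of complex I, 3 of complex III, 3 of complex IV and 3 of complex V were lower, and 0 of complex II. Ndufa5, an accessory subunit of the matrix arm, ranged from 80.0 to 103 CPM in vehicle and from 71.1 to 78.2 with AA, without overlap. Ndufa5 had a log2 fold change of -0.33 ± 0.07 (SE) with AA on day 6 (edgeR adjusted p = 0.0051). Atp5g2 was at 49.2, 50.7, 53.0 and 64.1 CPM in vehicle and 44.4, 41.8, 41.1 and 42.1 with AA, also separate (-0.36 ± 0.08). Uqcc3 gave -0.42 ± 0.10, Ndufa13 -0.32 ± 0.09 and Ndufv1 -0.22 ± 0.05. Cox5b had 212, 199.9, 242 and 313 CPM in vehicle and 195, 189.9, 184 and 185 with AA. Vehicle replicate 4 stood highest, and the call was lost without any 1 of 5 libraries. The count depended on single libraries: 41 passed without vehicle replicate 2, 11 without vehicle replicate 3, and 14, 13, 10 and 8 without AA replicates 1 to 4. The AA response was lower on day 6 than on day 3 for 12 members and higher for 0 (10.4% and 8.78% of all genes), led by Cox5b (-0.62 ± 0.15). With total counts only, 5 were lower and 1 higher. The count was 1 without AA replicate 3 of day 3, 3 without vehicle replicate 2 of day 3 and 27 without vehicle replicate 2 of day 6.

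Across the 79 tested members other than the 3 tissue-restricted isoforms of complex IV, the fold changes of AA on day 1 and of PGE2 on day 3 had a Pearson r of 0.63 and a Spearman rho of 0.65. For AA on day 1 against AA on day 6 these were 0.29 and 0.31, and for PGE2 on day 1 against AA on day 6 0.11 and 0.14. For AA on day 3 against AA on day 6 they were 0.41 and 0.32. No pair shares a library, and members share depth and scaling, so the values describe the members and are not tests.

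The 3 tested tissue-restricted isoforms, which rest on few reads, are described apart. Cox7a1, the heart and muscle form of a complex IV subunit, had 2.36, 1.69 and 2.27 CPM in vehicle, 1.59, 1.05 and 0.647 with AA and 0.762, 0.834 and 0.920 with PGE2 on day 1, which rest on 84, 46 and 29 reads per group. It fell with both (-0.93 ± 0.27 and -1.32 ± 0.30), and on day 3 it was 2.16, 2.39 and 2.62 CPM in vehicle and 3.49, 3.39 and 4.17 with AA, a log2 fold change of 0.64 ± 0.22. The day 1 call with AA was lost without AA replicate 3, and the day 3 call without AA replicate 3, without vehicle replicate 1 and with DESeq2. Cox6b2, known from testis, had 3.24, 2.21 and 2.72 CPM in vehicle and 4.52, 5.27 and 7.11 with PGE2 on day 3, with no overlap (1.04 ± 0.22). On day 6 it was 0.535, 0.869, 0.721 and 0.960 CPM in vehicle and 1.81, 1.91, 1.12 and 1.31 with AA (1.01 ± 0.25), again separate. Ndufa4l2, a hypoxia-inducible paralogue of Ndufa4, had 1 read in each group on day 1. On day 3 it had 48 reads in vehicle, 87 with AA and 6 with PGE2, and on day 6 156 in vehicle and 365 with AA. Its CPM on day 3 was 1.37, 1.33 and 1.31 in vehicle, 3.06, 1.89 and 2.01 with AA and 0, 0.217 and 0.203 with PGE2, 3 separate groups. The day 6 rise with AA was 1.14 ± 0.18, and the day 3 fall with PGE2 -3.10 ± 0.52. The day 3 call with AA (0.81 ± 0.31) was lost with DESeq2, with total counts only, with no filter and without any 1 of 4 libraries.

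The other mitochondrial gene lists were read beside the members by counts and medians, with no test of a list. On day 1, 22.2% of all tested genes fell and 19.5% rose with AA, and 28.9% fell and 27% rose with PGE2, which is the background for each day 1 count below. Of 49 respiratory chain assembly factors, 24 fell with AA on day 1 and 39 with PGE2, and 0 rose. Among them Bcs1l, which inserts the Rieske protein into complex III, gave -0.63 and -0.86, and Cox10, needed for the heme of complex IV, -0.34 and -0.50. Of 77 mitochondrial ribosomal protein genes, 45 and 64 fell on day 1, and 44 fell with AA on day 6, where 11 of the 49 assembly factors fell and 2 rose, against 15.5% of all genes lower and 15.3% higher. Of 27 genes of the tricarboxylic acid cycle and pyruvate entry, 19 fell and 4 rose with AA, and 21 fell and 3 rose with PGE2; Idh2, the mitochondrial isocitrate dehydrogenase that uses NADP, gave -0.64 and -1.03. Pdp1, a phosphatase that activates pyruvate dehydrogenase, rose (0.71 and 1.18). Of 13 coenzyme Q genes, 5 fell with AA and 10 with PGE2, and 1 rose in each, Coq10b. Coq8a, an atypical kinase of that pathway, gave -1.44 and -3.25.

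Of 13 subunits and carriers that the symbol rule did not take, 5 fell with AA and 8 with PGE2, Cyc1, the cytochrome c1 subunit of complex III, by 0.35 and 0.66 on the log2 scale. Gpd2, the glycerol phosphate dehydrogenase that also feeds coenzyme Q, rose instead (0.68 and 1.15). Of 23 regulators of mitochondrial biogenesis, 9 fell and 1 rose with AA and 14 and 1 with PGE2, against 22.2% and 28.9% of all genes that fell. Esrrg, a nuclear receptor of oxidative genes, gave -1.33 and -2.41, Esrra, its relative, -0.23 and -0.49, and Tfam, which packages and transcribes mitochondrial DNA, -0.32 and -0.77. Of 20 import genes 11 and 14 fell, and of 16 chaperones and proteases 9 and 11. Of 9 genes of ATP export and uncoupling 4 fell with AA and 3 with PGE2, the latter close to the 28.9% of all genes.

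Partner subunits encoded by mitochondrial DNA are given beside the nuclear members. Of 10 tested, 2 fell with AA on day 1, mt-Nd1 (-0.39) and mt-Co1 (-0.20), and 1 with PGE2, mt-Nd1 (-0.44), against 22.2% and 28.9% of all genes. The medians of the 10 were -0.24 and -0.19. Mitochondrial counts other than rRNA held 1.84% to 2.13% of all counts in vehicle on day 1, 1.60% to 1.83% with AA and 1.54% to 1.77% with PGE2, lower in every treated library. On day 6, 4 of 9 were higher with AA and 0 lower, against 15.3% and 15.5% of all genes, with a median of 0.33 beside -0.15 for the nuclear members. mt-Nd1, a complex I core subunit, averaged 8775 ± 539 CPM with AA and 6662 ± 1181 in vehicle (SD, n = 4). The 4 were mt-Nd1 (0.40), mt-Nd2 (0.47), mt-Co1 (0.33) and mt-Nd6 (0.53). Their RNA was part of a share of mitochondrial counts other than rRNA that ran from 3.16% to 4.64% in vehicle and from 4.55% to 5.23% with AA on day 6. mt-Co2 and mt-Co3 averaged under 2 CPM in both groups beside 15839 CPM for mt-Co1 in vehicle, so their values are uncertain. Why they were so low was not tested. Values of any gene with near-identical nuclear copies are uncertain as well, since the counting rule for such reads is not stated. The part of library make-up in this result was not tested.

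**Figure D4:**
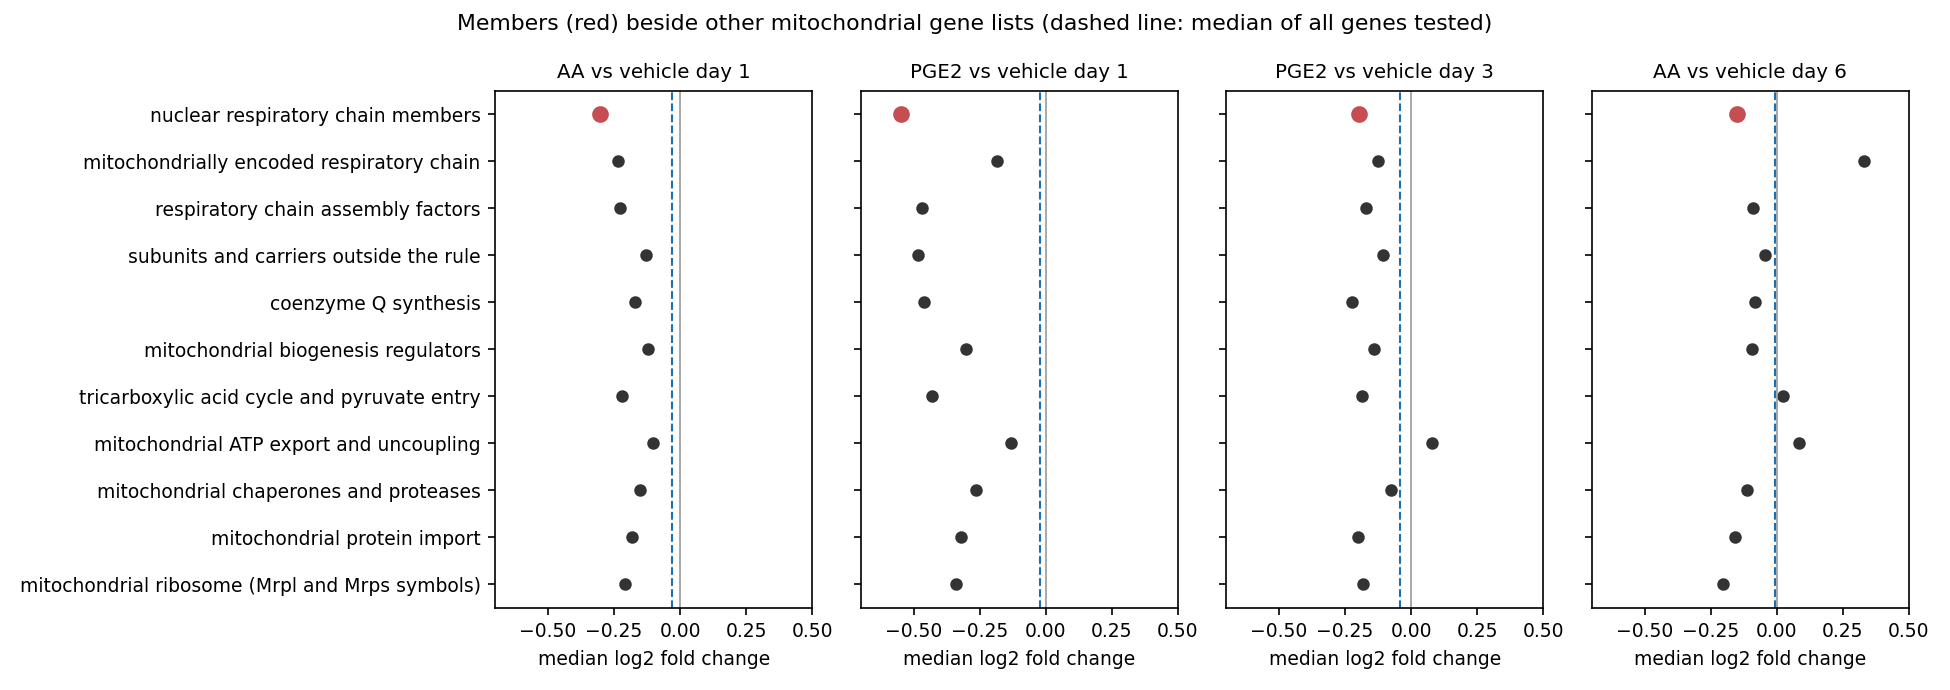
Median fitted log2 fold change (horizontal axis) of the 82 tested members (red) and of 10 other mitochondrial gene lists (black) in 4 comparisons; the dashed line is the median of all genes tested. On day 1 each list's median is below that of all genes, the members' being the lowest in both panels, and on day 6 the mitochondrially encoded list stands at 0.33.

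Markers of epithelial states moved over the same comparisons. The 5 stem cell markers (Lgr5, Olfm4, Ascl2, Smoc2 and Axin2) summed to 555 to 591 CPM in vehicle on day 1, 246 to 256 with AA and 129 to 143 with PGE2. On day 3 they were at 1786 to 1923, 555 to 608 and 244 to 273 CPM. The 5 fetal-like markers (Msln, Clu, Ly6a, Anxa1 and Il33) summed to 271 to 302, 1125 to 1170 and 2188 to 2226 CPM on day 1, and to 399 to 492, 1087 to 1301 and 2196 to 2244 CPM on day 3. On day 6 the stem cell markers were at 589 to 743 CPM in vehicle and 430 to 643 with AA, and the fetal-like markers at 17.1 to 40.9 and 40.7 to 94.1. The 10 enterocyte markers summed to 1334 to 1413 CPM in vehicle, 1614 to 1796 with AA and 1333 to 1385 with PGE2 on day 1, and to 1573 to 1619, 2648 to 3090 and 2741 to 3114 CPM on day 3. On day 6 they were at 1517 to 1908 CPM in vehicle and 2799 to 3480 with AA. The 5 proliferation markers stood at 2156 to 2199, 1959 to 1992 and 1928 to 1960 CPM on day 1, at 1693 to 1772, 1419 to 1589 and 1202 to 1229 on day 3, and at 2121 to 2219 and 1838 to 1927 on day 6. The 7 epithelial markers were higher in sum on day 1 as well, with 6475 to 7305 CPM in vehicle, between 10052 and 10454 with AA, and between 12651 and 13297 with PGE2. The 5 Paneth cell markers summed to 679 to 807 CPM in vehicle, 419.8 to 464 with AA and 598 to 705 with PGE2 on day 1, to 2025 to 2323, 683 to 862 and 663 to 709 on day 3, and to 4122 to 5209 in vehicle and 1789 to 2301 with AA on day 6. The 5 goblet cell markers were at 641 to 667, 421 to 455 and 759.6 to 824 CPM on day 1, at 944 to 995, 563 to 714 and 2021 to 2039 on day 3, and at 1847 to 2324 and 2419.9 to 2628 on day 6. The 5 enteroendocrine markers were at 44.1 to 45.9, 58.1 to 71.96 and 74.1 to 81.1 CPM on day 1, at 126 to 143, 45.5 to 55.0 and 30.8 to 44.6 on day 3, and at 336 to 406 and 240.4 to 256 on day 6. The 4 tuft cell markers stayed at or under 23.8 CPM in all libraries and were highest with PGE2 on day 3 (23.3 to 23.8 CPM). The part of these shifts in the members' changes was not tested.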

How the data were processed

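RNA from 26 organoid libraries was sequenced after directional library preparation, per the labels' protocols. The authors deposited raw read counts per mouse Ensembl gene in 2 tables, one for days 1 and 3 and one for day 6. The submitters' processing notes name cutadapt, STAR, DESeq2 and limma 3.46 without their roles, and the build GRCh38.p6, a human name, although the identifiers are mouse. No source used here states the counting program or its strand setting. Symbols came from a reference list of mouse gene names, joined by Ensembl identifier. Exon lengths and gene types came from GENCODE vM21, in which all 92 members had the same identifier version.

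The main test was edgeR's (version 4.0.16, under R 4.3.3; low-count filter by group, TMM scaling, robust quasi-likelihood F-test, Benjamini-Hochberg adjustment over all tested genes, threshold 0.05). One fit held days 1 and 3 (18 libraries, 14850 genes), one day 6 (8 libraries, 14663 genes), and one all 26 libraries (15504 genes), for the AA response of day 6 minus day 3. In 1 simulated set of counts per comparison, 100 genes were changed by 0.5 on the log2 scale and 100 by 1, in the AA group only. The changed genes had a log2 CPM of 1 or more, and far fewer were changed than passed in the data. For AA on day 1 (14513 genes), 78% and 96% of them were recovered, and for AA on day 6 (14487 genes) 65% and 98%. Both sizes exceed the members' medians of -0.30 on day 1 and -0.15 on day 6, so recovery of changes that small was not measured. False calls made up 3.33% of calls on day 1 and 7.39% on day 6, the latter above the 5% that the threshold allows.

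Named were the strongest passing members per complex and comparison whose log2 CPM averaged 1 or more, a panel of core and isoform genes, leading genes of each list, and untested members. Ndufs4, Atp5s, mt-Co2 and mt-Co3 were named after their values were seen. Members and lists were chosen with earlier results of these data known. Alternatives were DESeq2 1.42.0, other scaling, other filters, fewer groups, a replicate block, and leaving out each library. The values of 1 member are not reported here by name.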

Additional observations from a re-analysis of the deposited data

Results flagged for a closer look

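On day 6, 64 sets of 4 values were looked at for an outlier, each set being 1 quantity, such as the CPM of a gene, in 1 group. In 3 of the 64 sets 1 library lay far from the others, about the 1 in 20 that chance gives. Atp5a1 was lowest in 1 AA library at 830.5 CPM, Cox7a2 was highest in 1 AA library at 212.2 CPM, and Sdhb was highest in 1 vehicle library at 204.7 CPM.

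The response to AA differed between day 3 and day 1 by edgeR's test of the difference for 56 members. The difference in log2 fold change was 1.56 for Cox7a1, 0.62 for Ndufb10 and 0.58 for Ndufc1. The response to PGE2 differed between the same days for 57 members, with 1.25 for Cox6b2, 1.14 for Cox7a1 and 0.64 for Ndufb10. The PGE2 difference of Cox7a1 was lost under 8 alternatives and that of Cox6b2 without any 1 of 3 libraries.

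The response to AA differed between day 6 and day 3 for 12 members, with -0.62 for Cox5b, -0.42 for Atp5d and -0.39 for Ndufb3.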

How the results depend on the processing

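No named member reversed direction under the alternatives run. The members called with AA on day 3, 13 as reported, numbered 8 with DESeq2 and 7 when only the compared groups were fitted. The difference of AA responses between days 3 and 1, 56 members, gave 36 with only the compared groups, and that between days 6 and 3, 12 members, gave 6 with total counts only. The cause was not tested. Leaving out each library in turn gave 56 to 73 members for AA on day 1, 9 to 14 on day 3 and 8 to 41 on day 6, and 73 to 75 and 44 to 56 for PGE2 on days 1 and 3. AA against PGE2 gave 38 to 45 and 46 to 58, vehicle day 3 against day 1 39 to 54, and the differences of responses 35 to 61 (AA, days 3 and 1), 39 to 57 (PGE2) and 1 to 27 (AA, days 6 and 3). Depth limits Cox7a1, Cox6b2 and Ndufa4l2, which rest on few reads.

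Deviations of same-numbered libraries from their group means had correlations of -0.0831 to 0.136 (22 pairs, 1 over 0.1). Unlike-numbered pairs ran from -0.223 to 0.284 on day 6. In groups this small the deviations depend on each other, so these values cannot tell whether same-numbered libraries share an origin. The main test used no pairing. With the replicate block, 73 members passed for AA on day 1, 14 on day 3 and 22 on day 6, 75 and 53 for PGE2 on days 1 and 3, 52 and 60 for AA against PGE2, 53 for vehicle, and 60, 59 and 15 for the differences of responses.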
